A study of Mus musculus with 2 samples.

Results

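The 8 genes that mark satellite glial cells (Fabp7, Apoe, Glul, Cdh19, Slc1a3, Gja1, S100b and Ednrb) were examined in RNA-seq of dorsal root ganglion (DRG) neuron preparations. They were chosen by gene symbol and are present as 13 transcript rows, out of 24411 genes and 35034 rows. The study compared young adult male C57BL/6 mice injected with alum, an aluminium salt adjuvant, with mice immunized with alum plus keyhole limpet hemocyanin (KLH), a mollusc protein that serves as a foreign antigen. Thoracic and lumbar DRGs were digested, neurons were enriched on a BSA cushion, and B lymphocytes were removed with beads. Each group was 1 library made from the pooled neurons of 10 mice, so there are no replicates, no value has an error and no comparison below has a test. The control carries a label that reads both naïve and alum alone, and it was treated as alum-injected. The libraries are called the alum pool and the KLH pool below. Values are TPM, a unit in which reads per transcript length are scaled to a total of 1000000 in each library. They come without read counts, and the study states only a minimum read depth per sample. The detection threshold of the study was 3 TPM.

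Satellite glial cells wrap the cell bodies of sensory neurons in the ganglion, and each neuron shares a narrow cleft with its own sheath. They take up transmitter and potassium from that cleft, are joined to each other by gap junctions and arise, like Schwann cells, from the neural crest. Fabp7 encodes a fatty acid binding protein of glial precursors and satellite glia, and Apoe a lipid carrier that glia and macrophages secrete. Slc1a3 encodes the glutamate transporter GLAST and Glul the enzyme glutamine synthetase, which converts the glutamate taken up to glutamine. Gja1 encodes the gap junction protein connexin 43 and Cdh19 a cadherin of the peripheral glial lineage. S100b encodes a calcium-binding protein found in most peripheral glia, and Ednrb the endothelin B receptor. Apart from Cdh19, these genes are also known from astrocytes of the central nervous system, and S100b, Cdh19 and Ednrb are shared with Schwann cells. The set therefore marks glia of the ganglion rather than a single cell type.

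The sequence before the start is shown for the most abundant members, Fabp7 and S100b, and for Apoe, the member that differed most between the pools. The bases come from RefSeq (GRCm38.p6), are written 5′ to 3′ on the strand of the gene and stop before any exon annotated in GENCODE M21. Exons of the RefSeq annotation, which places the gene Tomm40 3 bases from Apoe, were not checked, so the Apoe sequence may overlap that gene. Windows were given for 7 of the 8 members, and 1 member, Cdh19, had no entry. Apoe had 3 windows, of which the one before the start of the 4-exon transcript is shown. Capitals mark the CCAAT box (CCAAT or its reverse complement) and the SOX core (ACAAAG or its reverse complement), searched on both strands.
Fabp7, chr10:57784673-57784880, plus strand: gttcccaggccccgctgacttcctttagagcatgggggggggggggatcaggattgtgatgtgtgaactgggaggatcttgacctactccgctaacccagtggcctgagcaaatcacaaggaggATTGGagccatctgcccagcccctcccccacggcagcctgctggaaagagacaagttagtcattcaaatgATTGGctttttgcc
S100b, chr10:76253586-76253835, plus strand: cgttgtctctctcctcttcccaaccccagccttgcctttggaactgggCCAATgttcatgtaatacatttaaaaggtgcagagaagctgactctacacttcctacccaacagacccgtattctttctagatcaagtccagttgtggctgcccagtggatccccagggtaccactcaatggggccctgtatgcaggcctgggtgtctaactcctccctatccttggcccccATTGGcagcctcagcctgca
Apoe, chr7:19699189-19699438, minus strand: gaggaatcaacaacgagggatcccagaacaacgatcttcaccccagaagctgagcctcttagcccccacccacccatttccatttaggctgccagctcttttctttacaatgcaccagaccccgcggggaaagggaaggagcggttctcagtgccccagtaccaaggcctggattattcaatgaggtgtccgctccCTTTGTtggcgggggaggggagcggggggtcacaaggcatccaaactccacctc
The upstream sequences of Fabp7 and S100b each held 2 CCAAT boxes, a motif found in 33.8% of the 32851 promoter windows of 250 bases, and that of Apoe held none. The Apoe sequence held 1 SOX core, which 16.5% of all windows contain. A TATAAA or GGGCGG motif, searched in the same way and found in 12.4% and 32.7% of all windows, was in none of the 3 sequences shown. Another Apoe window, chr7:19698622-19698871, held 2 TATAAA matches on opposite strands that overlap within a single stretch. These matches describe the letters only.

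Among the lipid-handling members, Fabp7 (NM_021272, 4 exons, chromosome 10, 57784881 to 57788450, plus strand) had the highest value of the set. It was at 952.6 TPM in the alum pool and 888.1 TPM in the KLH pool. Of all genes, 0.48% and 0.57% were above it, and it ranked 118th and 139th in preparations enriched for neurons. Apoe (chromosome 7, 19696109 to 19699188, minus strand) was at 131.9 TPM in the alum pool and 91.5 TPM in the KLH pool. It was the 4th highest member in the former and the 5th in the latter, where Ednrb exceeded it.

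Of the genes that handle glutamate, Glul (NM_008131, 7 exons, chromosome 1, 153899944 to 153909723, plus strand) reached 302.3 and 292.7 TPM in the alum and the KLH pool. Of the 31-base stretches in its transcript, 24.2% also occur in annotated transcripts of other genes, mostly in the pseudogene Glns-ps1, so its value may hold reads that belong elsewhere. Slc1a3 (NM_148938, 10 exons, chromosome 15, 8634124 to 8710764, minus strand) was the lowest member, at 12.8 and 12.5 TPM. The synthetase thus exceeded the transporter by 23.6-fold and 23.3-fold on the TPM scale, and 31.4% and 31.2% of all genes were above the transporter.

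The members of cell contacts were intermediate. Cdh19 (NM_001081386, chromosome 1, 110888326 to 110977584, minus strand) was at 52.6 TPM in the alum pool and 52.3 TPM in the KLH pool. Gja1 (NM_010288, chromosome 10, 56377330 to 56402513, plus strand) was at 45.6 and 44.5 TPM in the same order. They were neighbours in the order of levels, as were Apoe and Ednrb, and with 1 library a group no spread is available to tell whether neighbours differ.

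S100b (NM_009115, 3 exons, chromosome 10, 76253853 to 76261159, plus strand) was at 683.5 TPM in the alum pool and 711.5 TPM in the KLH pool. It was the only member with the higher value in the immunized pool. Ednrb (chromosome 14, 103814625 to 103844402, minus strand) was at 114.3 and 113.1 TPM. Fabp7 and S100b together made up 71.3% and 72.5% of the summed TPM of the 8 genes, which was 2295 and 2206 TPM, or 0.230% and 0.221% of each library. All 8 genes were above 3 TPM in both pools, as were 45.5% of all genes, over a range of 74.4-fold and 70.8-fold from Slc1a3 to Fabp7.

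**Figure D1:**
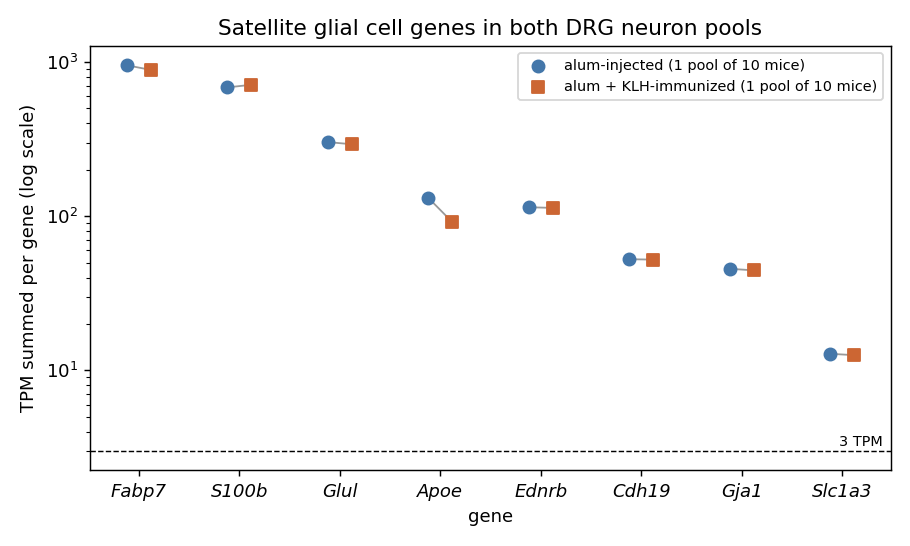
TPM summed per gene (log axis) for the 8 satellite glial cell genes in the alum pool (circles) and the KLH pool (squares), each a single library from 10 mice, with the detection threshold of 3 TPM dashed. The paired points nearly coincide except for Apoe, at 131.9 and 91.5 TPM.

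Only Apoe and Ednrb had more than 1 transcript row. For Apoe, NM_009696 was at 113.9 and 85.6 TPM in the alum and the KLH pool, which is 86.4% and 93.5% of the gene. NM_001305844 was at 17.9 and 5.64 TPM, NM_001305843 at 0 and 0.28 TPM, and NM_001305819 at 0 in both. Both of the abundant Apoe rows were thus lower in the immunized pool, but they share most of their 31-base stretches and are not independent values. In the annotation NM_001305844 matches a transcript of 3 exons that starts inside the first intron of the 4-exon transcript matched to NM_009696, and 153 of its 1191 different 31-base stretches are not found in the latter. For Ednrb, NM_007904 held 98.0% and 98.1% of the gene, at 112.0 and 111.0 TPM, and the other rows were below 2 TPM. In this gene only 1 such stretch of NM_007904 is absent from the other rows, so the split among its rows carries little information and the sum was used.

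The pools were compared by the log2 ratio of TPM + 1, alum + KLH over alum. The ratio was below 0 for 7 of the 8 members, against 56.4% of the 11648 genes above 3 TPM in at least 1 pool. The background depended on the filter. The share was 43.3% among genes above 100 TPM in both pools. Without a filter it was 45%, where genes at 0 TPM in both pools have a ratio of 0 and cannot be below it. The median over the 8 members was -0.030. That over the 11648 genes above 3 TPM was -0.020, and that over the 2155 genes with a mean above 100 TPM was 0.015. Cdh19 and Ednrb, at -0.0085 and -0.014, changed sign when the pools were rescaled to a common median ratio or to the neuronal genes, which left 5 members below 0. No share of all genes below 0 was computed on the rescaled values. None of the 8 was at least 1.5-fold apart, which held for 2.56% of the 11648 genes above 3 TPM in at least 1 pool. A KLH to alum ratio of TPM within 10% of equality was found for 7 members and for 66.8% of the same 11648 genes. The number of satellite glia and the RNA of each cell cannot be told apart in pooled samples, so a steady value describes neither on its own.

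The ratios of the other members lay close to 0. Fabp7 was at -0.10, Glul at -0.046, Gja1 at -0.033 and Slc1a3 at -0.028, while S100b was at 0.058. For all members but Apoe the size of the ratio was below the SD among the 500 genes nearest in level, which lay between 0.12 for Cdh19 and 0.22 for Slc1a3. Without Apoe the median over the members was -0.028.

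Apoe stood apart at a log2 ratio of -0.52, which is 1.44-fold lower in the KLH pool. It was the only member at least 1.2-fold lower, as were 8.41% of all genes above 3 TPM and 2.74% of those with a mean above 100 TPM. Among the latter, 11 genes (0.51%), Apoe itself included, had a ratio as low as that of Apoe or lower. Among all genes above 3 TPM there were 221 such genes (1.90%). The SD among the 500 genes nearest to Apoe in level was 0.13. The difference is a single value for each pool and has no replicate check.

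**Figure D2:**
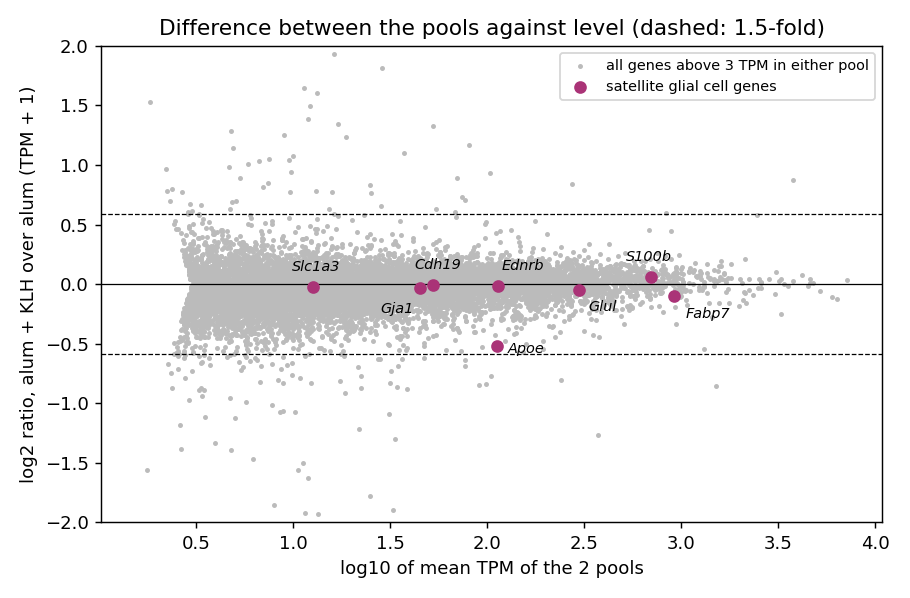
Log2 ratio of TPM + 1, alum + KLH over alum, against the log10 of the mean TPM of both pools, for the 11648 genes above 3 TPM in at least 1 pool (grey) and the 8 satellite glial cell genes (purple). Dashed lines mark 1.5-fold, and 147 genes lie beyond the axis limit of 2 in either direction. The other 7 members lie along the zero line and Apoe lies at -0.52.

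The ratio moved with the base composition of the transcript. Genes above 3 TPM were split by the GC content of their most abundant annotated transcript into 10 groups of equal size, with a GC value for 98.3% of them. The median log2 ratio was 0.071 in the GC-poorest group and -0.19 in the GC-richest. The share of genes below 0 was 24.3% and 86.2% in these groups. The transcript of Apoe has 59.5% GC, the highest of the members, and falls in the GC-richest group. There 68 of 1146 genes, or 5.93%, had a ratio as low as that of Apoe or lower, Apoe itself included. After subtraction of the group median the ratio of Apoe was -0.33. The part of GC content in the difference of Apoe was not tested. The other members have between 37.4% GC (Cdh19) and 49.2% GC (Glul). Fabp7, at 41.4% GC, belongs to a group with a median of 0.037, and the same subtraction took its ratio to -0.14. S100b remained above 0, at 0.064, and the other 7 members were below 0 on this scale. The subtraction sets the median of all genes in each group to 0, so the background share below 0 is fixed by construction.

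**Figure D3:**
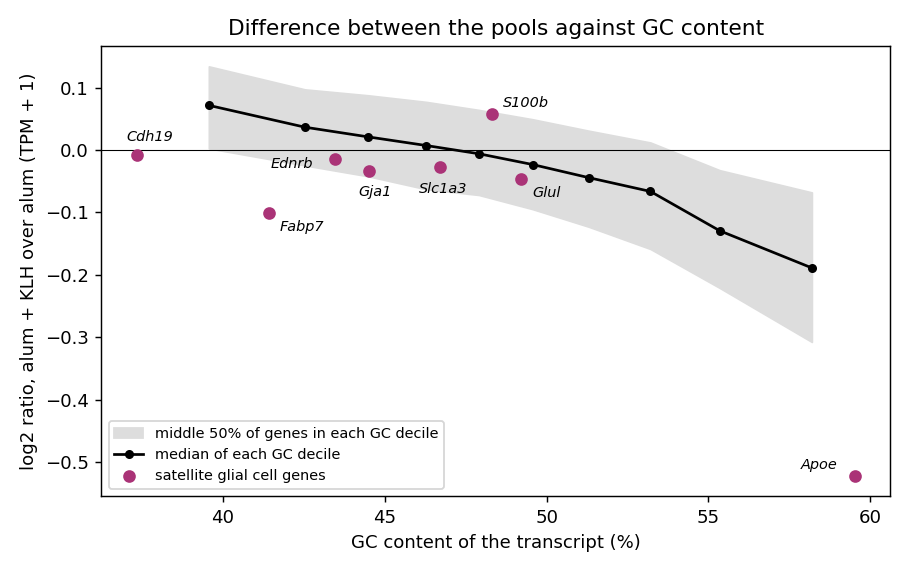
Log2 ratio of TPM + 1, alum + KLH over alum, against the GC content (%) of the transcript. The line joins the medians of the 10 GC groups of all genes above 3 TPM, from 0.071 to -0.19, the grey band holds the middle 50% of genes in each group, and purple points are the 8 satellite glial cell genes. Apoe, at 59.5% GC, Fabp7, at 41.4% GC, and Cdh19, at 37.4% GC, have ratios below the middle 50% of their GC group, and the other 5 lie within it.

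The label was then checked against 24 further genes of satellite glia or of the peripheral glial lineage. Of these, 18 exceeded 3 TPM in both pools, and the list summed to 2181 TPM in the alum pool and 2109 TPM in the KLH pool. The highest were Vim at 569.8 and 557.1 TPM, Dbi at 483.7 and 414.7 TPM and Sparcl1 at 364.3 and 389.7 TPM. Vim and Dbi are also made by many other cells. Kcnj10, which encodes the inward rectifier Kir4.1 of the satellite glial sheath, was at 27.6 and 27.4 TPM, and Sox2, a transcription factor of glial precursors, at 37.2 and 40.7 TPM. Against the label, Sox10, the defining transcription factor of the neural crest glial lineage, was at 1.25 and 1.03 TPM, and Erbb3, the neuregulin receptor of that lineage, at 1.496 and 1.16 TPM. Gjb6 was listed at 0 in both. The Sox10 transcript has 61.7% GC, and when all 23769 genes with a GC value were split into 10 such groups, 22.7% of the GC-richest were above 3 TPM in both pools, against 54.8% in the group with the largest share. Erbb3 has 51.2% GC, where the share was 52.4%. The part of GC content in these low values was not tested. Kcnj10, Sox10, Erbb3 and Gjb6 were named for their roles, with their values known.

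Between the pools, 10 of the 18 further genes had a ratio below 0 and 8 above it, with a median of -0.0065. Of all genes above 3 TPM, 56.4% had a ratio below 0. The lowest of the 18 was Cryab, a small heat shock protein gene, with 36.3 TPM in the alum pool and 25.4 TPM in the KLH pool and a log2 ratio of -0.50. It was the only one of the 18 at least 1.2-fold lower, which held for 8.41% of all genes above 3 TPM. The highest ratio, 0.13, was that of Sox2.

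Genes of the other cells that a ganglion holds were read from the same libraries. The 12 pan-neuronal genes, led by Nefl, Snap25, Stmn2 and Nefm, summed to 18080 TPM in the alum pool and 17817 TPM in the KLH pool, and the 8 satellite glial cell genes came to 12.7% and 12.4% of that sum. Without Apoe these shares were 11.97% and 11.87%. They compare RNA levels of chosen genes and are not cell proportions. Of the 12, 9 had a ratio below 0, and the ratios ran from -0.44 for Rbfox3 to 0.19 for Elavl4. The share below 0 was 56.4% of all genes above 3 TPM and 43.3% of those above 100 TPM in both pools. Among 12 genes of myelinating Schwann cells, 7 passed 3 TPM in both pools. Pmp22 was the highest at 1062 and 1021 TPM, followed by Mal at 63.4 and 65.0 TPM and Mbp at 59.4 and 53.9 TPM. Egr2, a transcription factor gene of myelination, had the highest ratio, at 0.16, and Mag, a myelin adhesion protein gene, was at 0.24 and 0.23 TPM. The 7 genes listed for non-myelinating Schwann cells were all above the threshold. Neurons also express most of them, among them Gap43, Cadm1, L1cam and Ncam1, so this list does not separate Schwann cells from neurons. Scn7a, which the study lists as nociceptor-related, was the highest at 693.6 and 694.5 TPM, and L1cam had the lowest ratio, -0.25. A share of the S100b, Cdh19 and Ednrb signal from Schwann cells cannot be told apart from that of satellite glia.

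Macrophage and endothelial genes were near the threshold or below it, while some fibroblast and pericyte genes were well above it. Of 14 macrophage genes, 1, Lyz2, was above 3 TPM in both pools, the list summed to 12.3 TPM in the alum pool and 11.7 TPM in the KLH pool, and Trem2 was listed at 0 in both. By the mean of the pools, Cx3cr1, Mrc1 and Cd68 followed Lyz2. Macrophages also make Apoe in many tissues, and the part of these cells in its difference was not tested. The 8 endothelial genes summed to 18.2 and 13.6 TPM, led by Emcn, Cdh5, Pecam1 and Flt1, of which the first pair passed the threshold. Of 7 astrocyte genes outside the members, of which Gfap, Gjb6 and Slc1a2 are also in other lists here, 3 were above 3 TPM in both pools, led by Aqp4 at 14.8 and 14.9 TPM, and Gfap was at 5.28 and 4.84 TPM. Of the 10 fibroblast and pericyte genes 4 passed, with Rgs5 at 172.2 and 162.4 TPM, Dcn at 63.8 and 62.6 TPM, and Lum and Col1a2 lower.

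**Figure D4:**
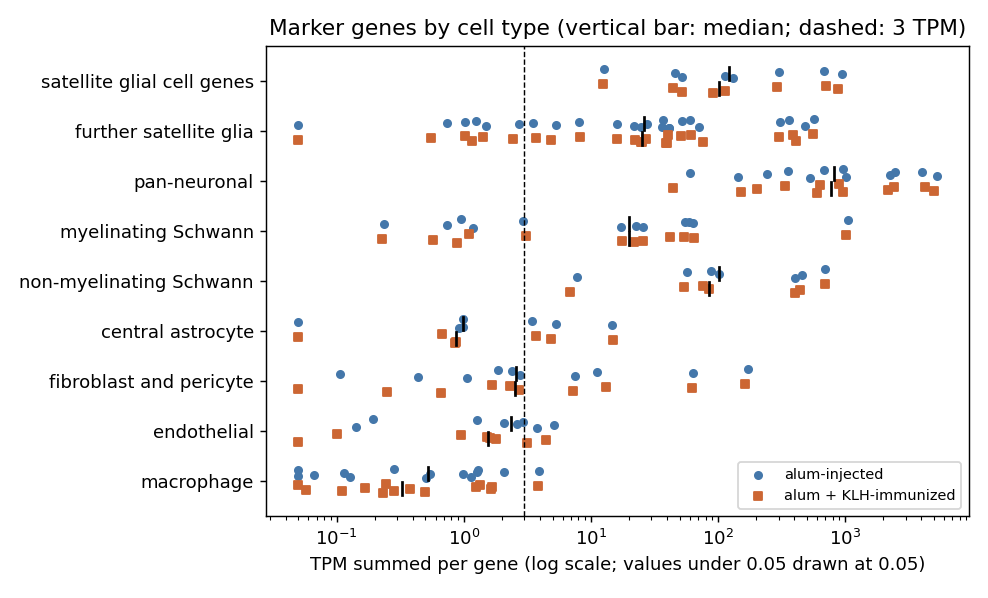
TPM summed per gene (log axis, values under 0.05 drawn at 0.05) for the 8 satellite glial cell genes, 24 further glial genes and 7 lists of cell type markers, in the alum pool (circles) and the KLH pool (squares). Black bars are list medians, and the dashed line is 3 TPM. The medians of the satellite glial cell genes, 123.1 and 102.3 TPM, lie below those of the neuronal genes and above those of the macrophage genes, at 0.52 and 0.33 TPM. The nearest medians are those of the non-myelinating Schwann genes, at 101.2 and 85.1 TPM, while the 24 further glial genes are at 26.2 and 25.1 TPM.

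The partners of the lipid-handling members were examined next. Of 17 genes of ApoE lipid particles, 10 were above 3 TPM in both pools. The median ratio of the 10 was -0.0070, and 6 had a ratio below 0, against 56.4% of all genes above 3 TPM. Clu, which encodes the lipid carrier clusterin, was the highest at 189.9 TPM in the alum pool and 196.7 TPM in the KLH pool. The exporter Abca1 was at 75.5 and 78.8 TPM, and the receptor Sorl1 was at 75.9 and 70.2 TPM. None of the 10 was 1.5-fold apart, which held for 2.56% of all genes above 3 TPM. The highest ratio was that of the receptor Vldlr, at 0.26, and the lowest that of the transporter Abca7, at -0.23. Among 12 paralogs of Fabp7, 3 passed the threshold in both pools. Fabp5, the epidermal fatty acid binding protein gene, was at 399.7 and 324.9 TPM with a log2 ratio of -0.30, Fabp3 was at 81.1 and 72.2 TPM, and Crabp2 was at 9.0 and 9.9 TPM. Fabp7 shared no 31-base stretch with annotated transcripts of other genes. Pmp2, the paralog of myelinating Schwann cells, was at 1.97 and 3.10 TPM, just above the threshold and in the KLH pool only. Its ratio, 0.46, was the highest among paralogs above 3 TPM in at least 1 pool. Among the 3 above it in both pools the highest was that of Crabp2, 0.13.

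Around Slc1a3 and Glul, 11 of 15 genes of glutamate handling were above 3 TPM in both pools. Of these, 7 had a ratio above 0 and 4 a ratio below it, against 56.4% below 0 among all genes above 3 TPM. Among the highest were the glutamine transporter Slc38a2, at 307.4 TPM in the alum pool and 321.8 TPM in the KLH pool, the asparagine synthetase Asns at 292.7 and 300.1 TPM and the glutamate dehydrogenase Glud1 at 292.2 and 289.8 TPM. Of the other glutamate transporters, the neuronal Slc1a1 was at 11.2 and 13.5 TPM, with the highest ratio of the list, 0.25, and the astrocytic Slc1a2 at 3.43 and 3.74 TPM. Slc1a3 was thus the highest Slc1a transporter gene of the alum pool among these 3, and Slc1a1 that of the KLH pool. Aldh18a1 had the lowest ratio, at -0.33.

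Gja1 was compared with its family. The connexin genes Gjc3, Gjc1 and Gjb6 were counted with the further glial genes above, where Gjc3 was at 16.1 and 16.2 TPM in the alum and the KLH pool and Gjc1 at 2.75 and 2.44 TPM. Of the 17 other connexin and pannexin genes listed, 3 were above 3 TPM in both pools (Panx1, Panx2 and Gjd2). Panx1, which forms large membrane channels, was at 74.5 TPM in the alum pool and 76.8 TPM in the KLH pool. Panx2 was at 6.15 and 4.67 TPM, the lowest ratio at -0.33, and the neuronal connexin gene Gjd2 at 3.49 and 5.13 TPM, the highest at 0.45. Gje1 was the next of this list at 1.49 and 1.76 TPM, and Gjb1, the connexin of myelinating Schwann cells, was at 1.097 and 0.76 TPM. Cdh2, the N-cadherin gene, was also counted with the further glial genes and was at 70.6 and 75.9 TPM, above Cdh19. Of the 18 other cadherin genes listed, 10 passed the threshold, and Cdh11, Cdh1, Cdh18 and Cdh10 were the highest of these, from 132.0 to 23.3 TPM in the alum pool and from 130.4 to 22.1 TPM in the KLH pool. Cdh19 lay between Cdh2 and Cdh18 in both. The highest ratio in the list was that of Cdh12, at 0.48, and the lowest that of the endothelial Cdh5, at -0.21.

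S100b was not the highest gene of its family. S100a10, a partner of annexin A2, was at 1136 TPM in the alum pool and 1008 TPM in the KLH pool, and S100a6 and S100a11 were at 353.6 and 334.6 TPM and at 154.9 and 142.0 TPM. Of the 8 paralogs above 3 TPM in both pools, 6 had a ratio below 0, against 56.4% of all genes above 3 TPM. S100a10 had the lowest, at -0.17, and S100a13, at 92.0 and 107.1 TPM, the highest, at 0.22. In the endothelin system, Ednrb was above its ligands, none of which reached 3 TPM. Edn1 was at 2.03 and 1.39 TPM, Edn2 at 0.38 and 0.52 TPM and Edn3, the ligand that Ednrb binds in neural crest development, at 0.064 and 0.073 TPM. The other receptor, Ednra, was at 4.51 and 4.63 TPM, and the converting enzymes Ece2 and Ece1 were at 30.2 and 27.3 TPM and at 20.3 and 16.7 TPM. Edn2, Edn3 and Gjb1 were named as ligands or as a Schwann cell gene after their values were seen.

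Likeness to each member was measured as the distance of log2(TPM + 1) over the 2 pools among all genes above 3 TPM, which orders genes by level and difference and, over 2 libraries, separates few of them. For Fabp7 the nearest genes were Uchl1 and B2m, with 10 genes within a distance of 0.1. For Apoe they were the ribosomal protein genes Rps16, at 126.2 TPM in the alum pool and 93.8 TPM in the KLH pool, and Rplp1, at 116.4 and 92.2 TPM, and only 1 gene lay within 0.1. For S100b they were Actr2 and Mrfap1, with 21 genes within 0.1, and for Glul Dpp10 and Rps13, with 57. The other 4 members each had more than 100 genes within this distance, led by Cyb5r1 and Maoa for Ednrb, Arl4a and Gdap2 for Cdh19, Slain2 and Terf2ip for Gja1, and 2610507I01Rik and D430036J16Rik for Slc1a3.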

How the data were processed

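RNA-seq libraries were prepared from DRG neurons of alum-injected and alum + KLH-immunized mice (1 library per group, RNA of 10 mice pooled). Per the study's methods and the submitters' processing notes, the authors demultiplexed paired-end reads with bcl2fastq, trimmed them with cutadapt and quantified them with kallisto on the annotated mouse transcriptome (mm10). Tool versions are not given in the sources used here. Each RefSeq transcript has a TPM value, deposited as the authors scaled it to a total of 1000000 in a library. TPM keeps no read counts, so no interval or detection limit was computed, and any GC or length bias of the libraries stays in the values.

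TPM was summed over rows of a gene. Log2 ratios used TPM + 1, which understates differences of low genes. Background counts covered genes above 3 TPM in at least 1 pool. GC content, exons and shared stretches of 31 bases came from GENCODE M21 (GRCm38, the assembly of mm10) through its RefSeq table, and upstream sequences from RefSeq. GC content and exons were those of the annotated transcript matched to a row, so rows matched to the same transcript share them. The members and all gene lists were chosen with earlier results of these data known. From each list the 4 highest genes and the genes with the highest and lowest ratio were to be named, with a few more named for their role. Some genes of these lists are counted but not reported here by name. Alternatives changed the pseudocount, the scaling, the filter and the transcript used. GC centring and leaving out Apoe were added after the data were seen. Calculations used Python 3.11.15, numpy 2.4.6, pandas 2.3.3, scipy 1.17.1 and matplotlib 3.10.9, and the functions were tested on simulated data.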

Additional observations from a re-analysis of the deposited data

How the results depend on the processing

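The counts and medians over the 8 members kept their side of 0 and of the fold limits under all alternatives. The median log2 ratio ranged from -0.052 with GC centring to -0.010 with pan-neuronal rescaling, the number of members below 0 was 5 under both rescalings and 7 under the other alternatives that keep all members, and none was 1.5-fold apart under any. Of 56 single values under alternatives, 52 kept their sign, the exceptions being Cdh19 and Ednrb under both rescalings. The ratio of Apoe ranged from -0.53 to -0.33. Taken as a ratio of medians, the members were 14.9% of the neuronal genes in the alum pool and 13.2% in the KLH pool, against 12.7% and 12.4% as a ratio of sums. The share of genes at least 1.5-fold apart was 0.333% among genes above 100 TPM in both pools. No paired analysis was possible because each group has a single library, and for the same reason no library could be left out.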

Other observations

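Notch and neuregulin signals act on glial precursors that express Fabp7. Of 16 genes of these pathways, 9 exceeded 3 TPM in both pools. Of the 9, 4 had a ratio below 0 and 5 above it, against 56.4% below 0 among all genes above 3 TPM. The highest of the 9 were Nrg1, a neuregulin made by sensory neurons, at 46.3 TPM in the alum pool and 45.2 TPM in the KLH pool, the Notch effector Rbpj at 39.3 and 40.5 TPM, Nfia at 29.0 and 27.6 TPM and the Notch target Hey1 at 25.7 and 26.8 TPM. The ratios ran from -0.18 for Notch1, at 3.62 and 3.07 TPM, to 0.099 for Jag1. None of the 9 was at least 1.2-fold lower, which held for 8.41% of all genes above 3 TPM. The neuregulin receptor subunit Erbb2 was at 0.90 and 0.59 TPM, and Hes5 was listed at 0 in both pools, both named with their values known, as were the neighbours of Apoe below. The nearest genes to Apoe on chromosome 7 were low in both pools. Tomm40, whose annotated end lies 3 bases from Apoe, was at 2.83 and 2.80 TPM, Apoc1 was at 1.02 and 0.90 TPM, and Apoc4 and Apoc2 were listed at 0.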
